A study of Homo sapiens with 12 samples.

Results

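The genes described here are 7 members of the cyclic nucleotide phosphodiesterase (PDE) group, PDE9A, PDE3B, PDE4A, PDE4D, PDE6D, PDE7A and PDE8A, out of 14828 genes in the table. They were chosen on the values of PDE9A, a gene that the study lists as bound by CENPA in another prostate cancer line, VCaP, and that was higher after CENPA knockdown in these libraries. Its change against the control was therefore part of the choice and is given as a description, without a test. The values are log2 RPKM (reads per kilobase of transcript, scaled to library size, on a logarithmic scale) in 22Rv1, a line of human prostate carcinoma cells. Cells were transduced with a doxycycline-inducible lentiviral vector for a short hairpin RNA (shRNA) that has no target (shNT) or for either of 2 shRNAs against CENPA (shCENPA1 and shCENPA2). CENPA encodes the histone H3 variant that marks centromeres. All 3 groups carried the vector and received doxycycline at 2 µg/ml for 72 h, so the control differs from the knockdowns in the target of the shRNA and not in the exposure to drug or vector. Each group had 2 libraries, and each library was run in 2 lanes that were averaged to 1 value. The sources do not say that the libraries came from separate cultures, so errors and p-values measure the spread between these libraries, which may be technical.

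Phosphodiesterases hydrolyze the second messengers cAMP and cGMP and so end the signals that adenylyl and guanylyl cyclases begin. Families differ in substrate. Family 9 has a high affinity for cGMP, families 4, 7 and 8 act on cAMP, and family 3 binds both, with cGMP slowing its hydrolysis of cAMP. PDE6D is named for the photoreceptor enzyme it was found with, but it is a chaperone without hydrolase activity that carries prenylated proteins such as RAS between membranes.

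Reads on genes, recovered from the log2 RPKM values, numbered 79172294 to 133074655 per library. The read numbers of single genes below were recovered in the same way. For CENPA itself the shNT libraries gave 2.46 and 2.18 log2 RPKM, those of shCENPA1 gave 0.50 and 0.58, and those of shCENPA2 gave -0.47 and -0.41. CENPA mRNA was 70.9% lower under shCENPA1 (limma over 14624 genes, adjusted p = 0.000287) and 85.3% lower under shCENPA2 (adjusted p = 1.13e-05). All 6 prostate epithelial markers described here (KLK2, KLK3, HOXB13, TMPRSS2, KRT8 and KRT18) were present, with the transcription factor HOXB13 at 7.79 to 8.39 log2 RPKM, but KLK3, which encodes prostate-specific antigen, was low in shNT, at -0.48 in both libraries. Over the 6 libraries KLK2 lay at -0.77 to 0.62, TMPRSS2 at 1.04 to 2.19, KRT8 at 5.63 to 5.90 and KRT18 at 6.49 to 6.97. Of the 6 markers, 3 fell and 1 rose under shCENPA2, beside 10.5% and 8.05% of all genes. KLK3 fell by 1.64 (limma, adjusted p = 0.0016) and TMPRSS2 by 0.79 (adjusted p = 0.00331). KLK2 fell by 1.05 (adjusted p = 0.0103), a call lost without shNT library 2 (-0.84). HOXB13 rose by 0.47 (adjusted p = 0.0164). Under shCENPA1 the difference of KLK3 was -0.77 (adjusted p = 0.0972), and 0 of the 6 passed. The summed level of the 6, of which HOXB13 was the largest part, was 424 and 384 RPKM in shNT, 442 and 483 with shCENPA1 and 488 and 444 with shCENPA2. The part of these markers in the PDE values was not tested. Of 4 markers of stromal, endothelial and blood cells, COL1A1 was the one among the genes of the table, at -0.07 to 0.37 log2 RPKM in the 6 libraries.

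PDE9A was the most abundant member in every library. It is annotated at chr21:42653621-42775509 on the plus strand (GRCh38, GENCODE 44), with 28 transcripts from 11 starts, which the gene-level values do not separate, and 1 other annotated gene overlaps it that was not analysed here. Its level was 3.86 and 3.82 log2 RPKM in shNT, 4.85 and 5.01 with shCENPA1, and 5.17 and 5.08 with shCENPA2, on 6297 to 23918 reads of a library. All 4 knockdown libraries lay above both shNT libraries, and the groups did not overlap. Here and below, the share of all genes with such a pattern was not counted. On the linear scale the level was 14.5 and 14.2 RPKM in shNT against 28.9, 32.2, 35.9 and 33.8 RPKM in the knockdown libraries. The difference from shNT was 1.09 ± 0.09 (SE, log2, n = 2 libraries per group) with shCENPA1, or 2.13-fold higher, and 1.28 ± 0.09 with shCENPA2, or 2.43-fold higher. The lanes of one library differed by at most 0.047 log2 units for this gene. Among the 14828 genes ranked by level, PDE9A stood at the percentile 77.1 in shNT, 90.3 with shCENPA1 and 92.0 with shCENPA2. Of the 14624 genes tested, 97 had a larger log2 difference from shNT with shCENPA1 and 135 with shCENPA2.

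PDE9A was 0.19 ± 0.09 (SE, log2) higher with shCENPA2 than with shCENPA1. This too is a description, since the study removed genes that differed between its shRNAs from the list that PDE9A comes from. Over all genes, 1.42% differed between the shRNAs in limma, CENPA among them, with a difference of -0.98 (adjusted p = 0.0209), a call lost without either shCENPA1 library or shCENPA2 library 2 (0.0571 to 0.212). None of the other 6 members passed this test, while 2 had an unadjusted p under 0.05 (PDE3B and PDE4D), and limma's voom on the recovered reads also passed 0. The unadjusted 95% interval of the difference was 0.11 to 0.70 for PDE3B and -0.97 to -0.13 for PDE4D, and both intervals leave out 0.

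**Figure D1:**
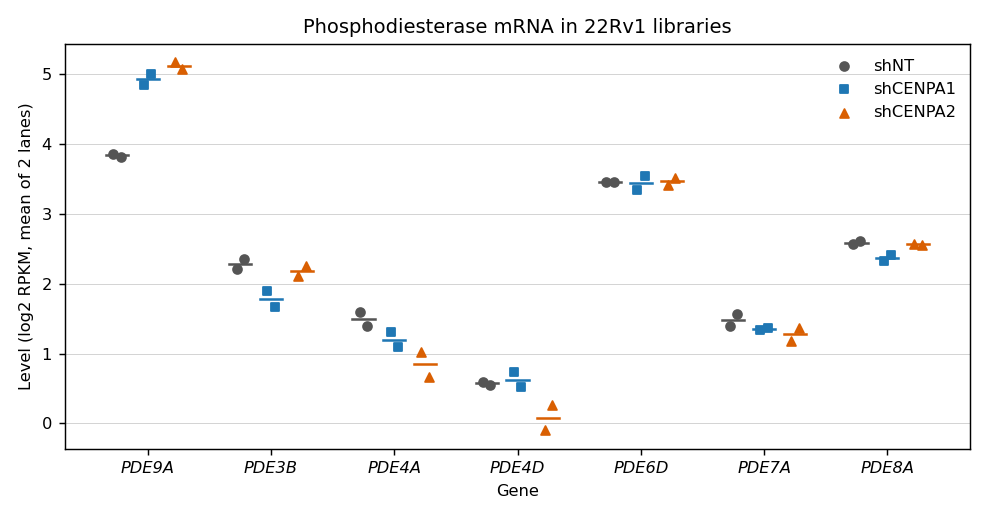
Level of the 7 members in log2 RPKM (vertical axis) in each of the 6 libraries, with circles for shNT, squares for shCENPA1 and triangles for shCENPA2 (n = 2 libraries per group, bars at the group means). PDE9A lies at 3.82 to 3.86 in shNT and at 4.85 to 5.17 in the 4 knockdown libraries, while PDE4A with shCENPA2 lies below both shNT libraries at 1.02 and 0.67.

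The other 6 members had levels near or below those of shNT in most knockdown libraries. Across the 6 members other than PDE9A, the median difference from shNT was -0.17 with shCENPA1 and -0.15 with shCENPA2, beside medians of 0.003 and 0.012 over all 14624 genes tested. With shCENPA1, 0 of the 6 passed the test (limma, adjusted p of 0.0539 to 0.929), 1 had an unadjusted p under 0.05, and voom on the recovered reads passed 1. With shCENPA2, 1 of the 6 fell and none rose. Over all genes, 2.69% rose and 4.45% fell with shCENPA1, and 8.05% rose and 10.5% fell with shCENPA2, so a count of 1 in 6 is no result about the members. Both knockdown comparisons share the shNT libraries, and their values are given side by side for that reason.

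The promoter sequences bear on the cAMP response, since CREB binds the palindrome TGACGTCA and, more weakly, its part TGACG. RefSeq promoter entries (GRCh38.p14, 250 bases before to 50 bases after a start) were given for 4 of the 7 members, with 17 starts in all, and PDE9A, PDE3B and PDE7A had no entry. Searched on both strands, TGACGTCA was in 1 of the 17 (5.88%) and in 649 of all 35116 entries (1.85%), and TGACG, which also lies inside the palindrome, was in 3 of the 17 (17.6%) and in 24.6% of all entries. The 3 entries with TGACG are shown, with the palindrome in capitals in PDE4A and TGACG in capitals in the others. They are 1 of 5 entries of PDE4A, 1 of 8 of PDE4D and the 1 entry of PDE6D, and the 3 entries of PDE8A held neither motif. The PDE4A entry shown, at chr19:10416523-10416822 on the plus strand, spans the annotated start of the gene and holds 7 matches to TGACG counted over both strands, while those shown of PDE4D (chr5:59587576-59587875, minus strand) and PDE6D (chr2:231781233-231781532, minus strand) hold 1 each.
PDE4A: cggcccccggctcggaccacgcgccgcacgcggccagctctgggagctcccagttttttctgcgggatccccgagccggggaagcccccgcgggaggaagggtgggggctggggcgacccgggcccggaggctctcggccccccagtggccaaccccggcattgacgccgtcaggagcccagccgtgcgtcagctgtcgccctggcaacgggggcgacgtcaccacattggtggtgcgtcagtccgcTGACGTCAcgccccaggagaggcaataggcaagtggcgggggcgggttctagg
PDE4D: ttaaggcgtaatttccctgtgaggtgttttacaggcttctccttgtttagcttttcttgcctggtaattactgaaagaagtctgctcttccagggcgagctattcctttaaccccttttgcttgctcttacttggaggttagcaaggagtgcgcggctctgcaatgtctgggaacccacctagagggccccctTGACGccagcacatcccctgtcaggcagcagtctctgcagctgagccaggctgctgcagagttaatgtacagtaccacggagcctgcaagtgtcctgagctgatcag
PDE6D: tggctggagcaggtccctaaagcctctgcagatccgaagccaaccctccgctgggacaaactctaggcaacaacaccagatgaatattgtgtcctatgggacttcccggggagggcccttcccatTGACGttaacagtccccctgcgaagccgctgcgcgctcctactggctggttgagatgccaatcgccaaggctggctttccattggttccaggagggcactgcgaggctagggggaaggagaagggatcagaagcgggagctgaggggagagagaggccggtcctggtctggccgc
A match describes the letters of the sequence and not binding.

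PDE4A, a cAMP-specific enzyme blocked by rolipram, is annotated at chr19:10416773-10469630 on the plus strand. It was at 1.60 and 1.39 log2 RPKM in shNT, 1.31 and 1.09 with shCENPA1 and 1.02 and 0.67 with shCENPA2, on 1112 to 2183 reads of a library. Every knockdown library lay below both shNT libraries. PDE4A fell by 0.65 ± 0.17 (SE, log2) with shCENPA2, to a level 36.3% lower (limma, adjusted p = 0.0278). With shCENPA1 the difference was -0.30 ± 0.17 (adjusted p = 0.353), and the difference between the shRNAs was -0.35 (95% interval -0.74 to 0.03, adjusted p = 0.421). The call with shCENPA2 was lost without shNT library 1 (-0.55, adjusted p = 0.202), without shNT library 2 (-0.76, adjusted p = 0.0652) and without shCENPA2 library 2 (-0.48, adjusted p = 0.103).

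PDE4D, the closest relative of PDE4A among the members and the longest of their genes (chr5:58969038-60522120, minus strand), was at 0.60 and 0.55 log2 RPKM in shNT and 0.73 and 0.52 with shCENPA1. With shCENPA2 it was at -0.10 and 0.26, so that both shCENPA2 libraries lay below the other 4. The difference from shNT was -0.50 ± 0.18 with shCENPA2 (95% interval -0.92 to -0.08, limma, adjusted p = 0.0943) and 0.05 ± 0.18 with shCENPA1 (adjusted p = 0.906). The shCENPA2 difference passed the test in 3 of 19 other settings. It did so without shCENPA2 library 2 (-0.68) and with voom (-0.46, adjusted p = 0.0352). It also did after a trend in GC content and length was removed (-0.46, adjusted p = 0.0486). PDE4D overlaps PART1, an androgen-regulated noncoding transcript on the opposite strand that fell by 1.38 with shCENPA2 (adjusted p = 0.0207), a call lost without shNT library 1 (0.0785) or either shCENPA1 library (0.0575 and 0.0571). The library kit keeps the strand, but the strand setting of the read counter is not given in the sources used here, so reads of the 2 genes may not be fully separated.

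PDE3B, which is best known for ending cAMP signals downstream of insulin in fat cells, is annotated at chr11:14643804-14872044 on the plus strand. Its level was 2.21 and 2.35 log2 RPKM in shNT, 1.89 and 1.66 with shCENPA1 and 2.11 and 2.25 with shCENPA2. Both shCENPA1 libraries lay below the other 4, and the shNT and shCENPA2 libraries overlapped. The difference from shNT was -0.50 ± 0.13 with shCENPA1, just outside the threshold (limma, adjusted p = 0.0539), and -0.10 ± 0.13 with shCENPA2 (adjusted p = 0.651). Of 19 other settings, 7 put the shCENPA1 difference past the threshold, among them the removal of either shCENPA2 library (-0.50). Removal of any of the 4 libraries compared did not, with differences of -0.62 to -0.39.

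PDE7A and PDE8A encode cAMP-specific enzymes that rolipram does not block. PDE7A (chr8:65714334-65842322, minus strand) was at 1.39 and 1.56 log2 RPKM in shNT, 1.34 and 1.37 with shCENPA1 and 1.18 and 1.37 with shCENPA2. All 4 knockdown libraries were below both shNT libraries. The differences of -0.12 and -0.20 did not pass the test (limma, adjusted p = 0.675 and 0.383), so no fall is claimed. PDE8A (chr15:84980440-85139145, plus strand) was at 2.57 and 2.61 in shNT, 2.33 and 2.41 with shCENPA1 and 2.57 and 2.56 with shCENPA2. Its shCENPA1 libraries were the lowest of the 6. The differences of -0.22 ± 0.10 and -0.02 ± 0.10 did not pass (adjusted p = 0.262 and 0.898).

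PDE6D, the prenyl-binding chaperone, had the least change of the 7. It is annotated at chr2:231732433-231786272 on the minus strand. Its level was 3.46 in either library of shNT, 3.34 and 3.54 with shCENPA1 and 3.41 and 3.52 with shCENPA2, and both knockdown groups spanned the shNT level. The 95% interval of the difference from shNT was -0.25 to 0.21 with shCENPA1 and -0.23 to 0.24 with shCENPA2 (limma, adjusted p = 0.929 and 0.984). PDE4A, PDE6D and PDE7A overlap genes on the opposite strand that are in the table, CDC37, COPS7B and MTFR1, which differed from shNT by -0.06 to 0.18 in either knockdown and did not pass the test.

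The order of the members by level per length was nearly the same in the 3 groups. In shNT it ran from PDE9A through PDE6D, PDE8A and PDE3B to PDE4A, PDE7A and PDE4D, and only PDE4A and PDE7A overlapped as neighbours in that order. In both knockdowns PDE7A stood above PDE4A, with no overlap between neighbours. Each member was well covered, with at least 1112 reads in every library, so the number of libraries rather than depth limits the precision.

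**Figure D2:**
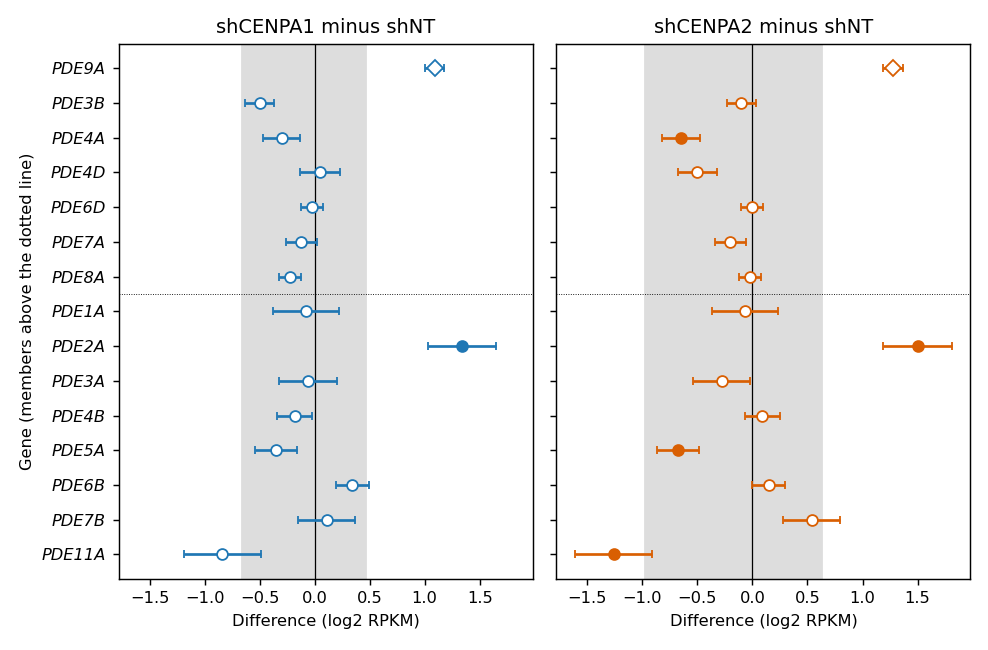
Difference from shNT in log2 RPKM (horizontal axis) for the 7 members and 8 other tested PDE genes, for shCENPA1 (left) and shCENPA2 (right), with bars of 1 SE; filled circles passed an adjusted p of 0.05, the diamond is PDE9A, which was not tested, and the grey band holds the middle 90% of all 14624 genes (-0.66 to 0.47 and -0.98 to 0.63). PDE9A and PDE2A lie above the band in both comparisons, and PDE11A lies below it in both.

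Of 17 further genes of the PDE families, 9 were among the genes of the table and 8 were tested. PDE2A, an enzyme that hydrolyzes both nucleotides and is stimulated by cGMP, was at -2.56 and -2.83 log2 RPKM in shNT, -1.25 and -1.45 with shCENPA1 and -0.87 and -1.51 with shCENPA2. The 4 knockdown libraries lay above both shNT libraries, on 89 to 353 reads each. The rise of PDE2A was 1.34 ± 0.31 for shCENPA1 (limma, adjusted p = 0.0295) and 1.50 ± 0.31 for shCENPA2 (adjusted p = 0.00852). The shCENPA1 call was lost when any of the 4 libraries compared was left out (1.21 to 1.48, adjusted p of 0.0684 to 0.194), and the shCENPA2 call without shNT library 2 (1.37, adjusted p = 0.0523). A constant of 1 added to RPKM reduced the differences of this weakly expressed gene to 0.27 and 0.32.

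PDE5A, the cGMP-specific target of sildenafil, was at 0.56 and 0.62 log2 RPKM in shNT, 0.33 and 0.15 with shCENPA1 and -0.27 and 0.08 with shCENPA2. Its 4 knockdown libraries lay below both shNT libraries. It fell by 0.68 ± 0.19 with shCENPA2 (limma, adjusted p = 0.0332), with a difference of -0.35 with shCENPA1 (adjusted p = 0.32). PDE11A, which hydrolyzes both nucleotides, fell by 1.26 ± 0.35 with shCENPA2 (adjusted p = 0.0372) from a level of -2.26 and -2.23 in shNT to -3.73 and -3.27, on 78 to 283 reads per library. The PDE5A call held in 11 of 19 other settings and the PDE11A call in 8 of 18. Both were lost without shNT library 1, shNT library 2, shCENPA1 library 1 or shCENPA2 library 1 (adjusted p of 0.0511 to 0.226), and that of PDE11A also without shCENPA1 library 2 (0.0679). PDE1A, PDE3A, PDE4B, PDE6B and PDE7B did not pass in either comparison (-0.28 to 0.54). PDE4C was below the minimum for testing, with group means of -3.06, -3.15 and -3.98 log2 RPKM from 46 to 101 reads per library.

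The make-up of PDE mRNA was described within each library, where a scaling of the whole library cancels. Of the summed RPKM of 15 catalytic PDE genes, PDE9A held 36.4% and 35.9% in shNT, 55.6% and 59.6% with shCENPA1 and 61.6% and 58.8% with shCENPA2. The summed level was 39.8 and 39.4 RPKM in shNT, 52.0 and 54.0 with shCENPA1 and 58.3 and 57.5 with shCENPA2. Without PDE9A it was 25.3 in either library of shNT, 23.1 and 21.8 with shCENPA1 and 22.4 and 23.7 with shCENPA2. The sum with PDE9A was thus above both shNT libraries in all 4 knockdown libraries, and the sum without it below them.

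The 3 cGMP-specific genes (PDE9A, PDE5A and PDE6B) together held 45.3% and 44.7% of PDE mRNA in shNT, 62.6% and 66.7% with shCENPA1 and 66.5% and 64.8% with shCENPA2. The 7 cAMP-specific genes held 39.9% and 39.6% in shNT, 27.4% and 25.4% with shCENPA1 and 23.8% and 24.8% with shCENPA2. Their summed level was 15.9 and 15.6 RPKM in shNT and 13.7 to 14.3 RPKM in the knockdown libraries. In each of these measures the 4 knockdown libraries lay on one side of both shNT libraries, while the ranges of the 2 knockdown groups overlapped in the shares of PDE9A and of the cGMP-specific genes and in the cAMP-specific sum. An exact permutation test of 2 libraries against 2 cannot go below p = 0.333, and the shares rest on PDE9A, which was chosen for its change. In RNA from whole cultures, less RNA of a gene per cell and fewer cells that express it cannot be told apart.

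**Figure D3:**
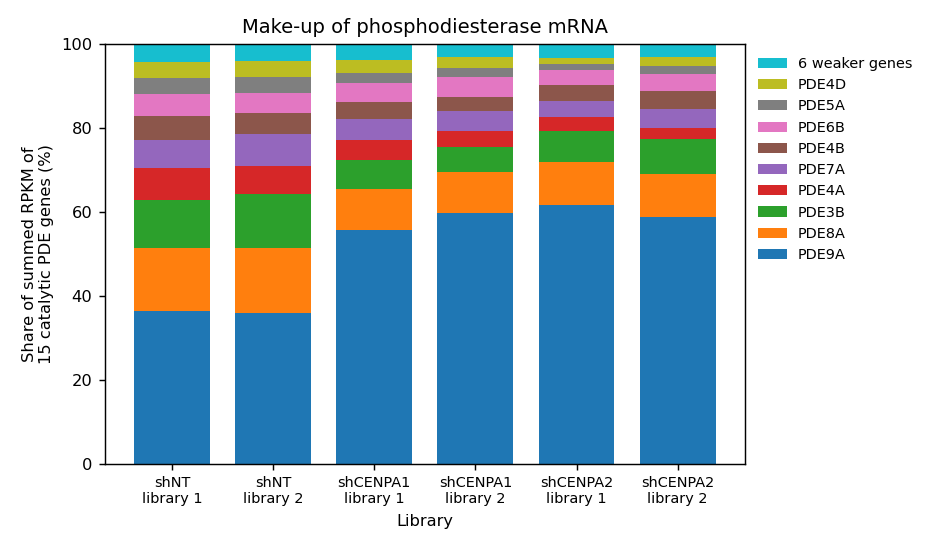
Share of the summed RPKM of 15 catalytic PDE genes (percent, vertical axis) in each of the 6 libraries, with 1 stacked bar per library and 1 colour per gene (PDE9A at the bottom, the 6 weakest genes joined at the top). PDE9A takes 35.9% to 36.4% of the bar in shNT and 55.6% to 61.6% in the 4 knockdown libraries.

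The genes that make, bind and export the nucleotides were counted by role. The 11 lists other than that of the members held 88 tested genes. These include the other PDE genes and the member PDE4D, which is also listed as a cAMP target. Of the 88, 4 rose and 1 fell with shCENPA1, or 5.68%, and 10 rose and 6 fell with shCENPA2, or 18.2%. These shares are near those over all genes given above, and the median differences were 0.04 and 0.08. Between the shRNAs, 0 of 88 passed with limma, 8 had an unadjusted p under 0.05, and voom passed 0. Adenylyl cyclases make cAMP, and the G protein alpha subunits of the list stimulate or inhibit them. Of 4 cyclases and 5 alpha subunits, 0 passed with either shRNA in limma. An unadjusted p was under 0.05 for 0 and 0 with shCENPA1 and for 1 and 1 with shCENPA2. With voom, 1 alpha subunit passed with shCENPA2.

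Beside PDE2A, 4 of these genes were named because they passed in the same direction with both shRNAs. PRKAR1B, a regulatory subunit of cAMP-dependent protein kinase (PKA), was at -0.52 and -0.56 log2 RPKM in shNT, 0.16 and 0.28 with shCENPA1 and 0.85 and 0.58 with shCENPA2, and rose by 0.76 and 1.26 (limma, adjusted p = 0.0368 and 0.00144). PKIG, an inhibitor of PKA, was at 2.74 and 2.63 in shNT, 3.09 and 3.31 with shCENPA1 and 3.35 and 3.11 with shCENPA2, and rose by 0.51 and 0.54 (adjusted p = 0.037 and 0.0145). PRKG2, a cGMP-dependent protein kinase, was at 0.24 and 0.18 in shNT, 1.06 and 0.82 with shCENPA1 and 1.06 and 0.93 with shCENPA2, and rose by 0.73 and 0.79 (adjusted p = 0.0261 and 0.00874). In each of these 3 genes the 4 knockdown libraries lay above both shNT libraries, which their choice made likely. ABCC11, an exporter that carries cyclic nucleotides, was at -0.68 and -0.99 in shNT, -2.32 and -2.44 with shCENPA1 and -2.71 and -3.44 with shCENPA2, and fell by 1.55 and 2.24 (adjusted p = 0.0229 and 0.00164). The shCENPA1 calls of these 4 genes were each lost when any of the 4 libraries compared was left out (adjusted p of 0.0649 to 0.283). With shCENPA2, the call of PKIG was lost without shNT library 2 (adjusted p = 0.109) or shCENPA2 library 1 (0.0706), and that of PRKG2 without shNT library 2 (0.0704).

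Of 9 PKA subunits and inhibitors, PKIA, another inhibitor of PKA, fell with shCENPA2, by 1.32 (limma, adjusted p = 0.0107), which was lost without shNT library 1 or 2 (0.0724 and 0.0864). Of 15 anchors that hold PKA and phosphodiesterases in place, 0 passed with shCENPA1 (4 with an unadjusted p under 0.05, 1 with voom), and 1 fell with shCENPA2, AKAP9 of the centrosome and Golgi, by 0.50 (adjusted p = 0.026), a call lost without shNT library 2 (0.142), shCENPA2 library 1 (0.108) or shCENPA2 library 2 (0.0608). With shCENPA2, 5 of the 15 anchors had an unadjusted p under 0.05, and voom passed 4. Of 10 other effectors, which include PRKG2 and the ion channels that cyclic nucleotides open, 1 rose with shCENPA1 and 3 with shCENPA2. Of all genes, 2.69% rose and 4.45% fell with shCENPA1, and 8.05% rose and 10.5% fell with shCENPA2. No list was tested against these shares. The channel genes HCN2 and CNGA1 were higher with shCENPA2 by 0.43 and 1.17 (adjusted p = 0.0202 and 0.0276), and each call was lost without shNT library 1 (0.0772 and 0.24) and without other libraries (0.0533 to 0.169). These 4 genes were also chosen after their values were seen.

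On the cGMP side, 1 of 6 guanylyl cyclase and nitric oxide synthase genes rose and 1 fell with shCENPA2. The shares of all genes were 8.05% and 10.5%, and the list was not tested against them. GUCY1A3, an alpha subunit of the soluble guanylyl cyclase that nitric oxide activates, fell by 1.20 (limma, adjusted p = 0.00365), from 0.98 and 1.00 log2 RPKM in shNT to -0.04 and -0.38. GUCY1A2, another alpha subunit, was higher, at 4.57 to 5.06 log2 RPKM over the 6 libraries. It differed from shNT by 0.04 with shCENPA1 and 0.12 with shCENPA2 (adjusted p = 0.89 and 0.616). The beta subunit GUCY1B3 differed from shNT by -0.36 with shCENPA1 and -0.29 with shCENPA2 (adjusted p = 0.0528 and 0.0619). NPR2, the receptor for C-type natriuretic peptide, rose by 0.95 with shCENPA2 (adjusted p = 0.034), a call that was lost without shNT library 1 (0.72, adjusted p = 0.197), shCENPA1 library 1 or 2 (0.0738 and 0.073) or shCENPA2 library 1 (0.60, adjusted p = 0.142). PRKG1, the other cGMP-dependent kinase, differed by -0.53 and -0.43 (adjusted p = 0.0769 and 0.086). GUCY1A3, GUCY1A2, GUCY1B3, NPR2 and PRKG1 were chosen after their values were seen.

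Among the transcriptional readouts of cAMP, 0 of 10 transcription factor and coactivator genes and 0 of 9 target genes passed with shCENPA1 in limma (2 and 1 with an unadjusted p under 0.05, and 0 and 0 with voom). With shCENPA2, 1 in each list rose in limma, and it was the same gene, CREM, which is both a cAMP-responsive factor and a target of CREB. Of all genes, 8.05% rose and 10.5% fell with shCENPA2, and the lists here were not tested against these shares. An unadjusted p was under 0.05 for 3 genes in each list with shCENPA2, and voom passed 2 of the factors and 3 of the targets. CREM rose by 0.74 (adjusted p = 0.00787) and differed by 0.48 with shCENPA1 (adjusted p = 0.0917). The 9 targets, which include PDE4B and the member PDE4D, had a median difference of 0.08 with shCENPA1 and 0.09 with shCENPA2. They lay on both sides of 0. The early targets FOS and NR4A1 differed from shNT by -0.36 to -0.09, and NR4A3, DUSP1 and PER1 by 0.08 to 0.69. The last was NR4A3 with shCENPA2 (adjusted p = 0.0591), and none of these passed in limma. Of 11 partners of PDE6D, 0 passed with shCENPA1 (1 with an unadjusted p under 0.05, 0 with voom) and 2 rose with shCENPA2, the lipid-binding chaperones UNC119 by 0.47 (adjusted p = 0.0131) and UNC119B by 0.29 (adjusted p = 0.0465), calls that were each lost without some of the libraries compared (adjusted p of 0.0615 to 0.326). Both were named after their values were seen, like the target genes above. The RAS genes HRAS and NRAS, cargo of PDE6D, differed from shNT by -0.13 to 0.12.

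**Figure D4:**
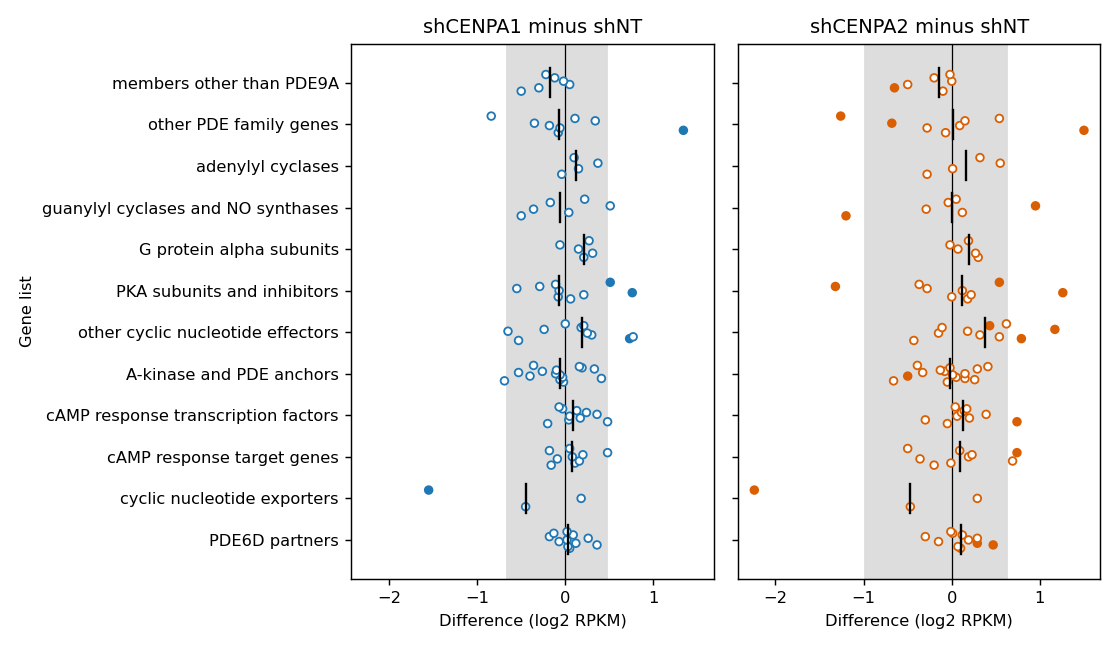
Difference from shNT in log2 RPKM (horizontal axis) for every tested gene of 12 lists (vertical axis, PDE9A left out), for shCENPA1 (left) and shCENPA2 (right); filled points passed an adjusted p of 0.05, black bars are list medians, and the grey band holds the middle 90% of all genes. Filled points lie on both sides of 0 with shCENPA2, from ABCC11 at -2.24 to PDE2A at 1.50.

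Within 500 kb of the start of PDE9A, 30 other genes are annotated, of which 8 were in the table and tested. With shCENPA1, TFF2, a trefoil peptide of mucus, rose by 0.93 (limma, adjusted p = 0.0134), and ABCG1, a cholesterol exporter, fell by 0.76 (adjusted p = 0.0258). The TFF2 call was lost without shNT library 2 (0.83, adjusted p = 0.0611) or shCENPA1 library 2 (0.75, adjusted p = 0.149), and that of ABCG1 without any one of the 4 libraries compared (adjusted p of 0.0658 to 0.213). TFF2 was at 1.69 and 1.49 log2 RPKM in shNT, 2.34 and 2.70 with shCENPA1 and 1.48 and 1.88 with shCENPA2, so that its shCENPA2 libraries overlapped those of shNT. With shCENPA2, 0 of the 8 passed in limma, 2 had an unadjusted p under 0.05, and voom passed 0. Over all genes, 2.69% rose and 4.45% fell with shCENPA1 and 8.05% rose and 10.5% fell with shCENPA2. The median of the 8 was 0.11 with shCENPA1 and 0.16 with shCENPA2. RSPH1, a radial spoke protein of cilia whose start lies at -157.4 kb from that of PDE9A, differed by 0.61 and 0.59 (adjusted p = 0.104 and 0.0687). Its 4 knockdown libraries lay above both shNT libraries. So did those of NDUFV3, PKNOX1 and CBS, with differences of 0.05 to 0.35 that did not pass (limma, adjusted p of 0.148 to 0.836). Those of ABCG1 all lay below. SLC37A1, whose start is at nearly the same distance, differed by -0.05 and -0.27 (adjusted p = 0.899 and 0.298).

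**Figure D5:**
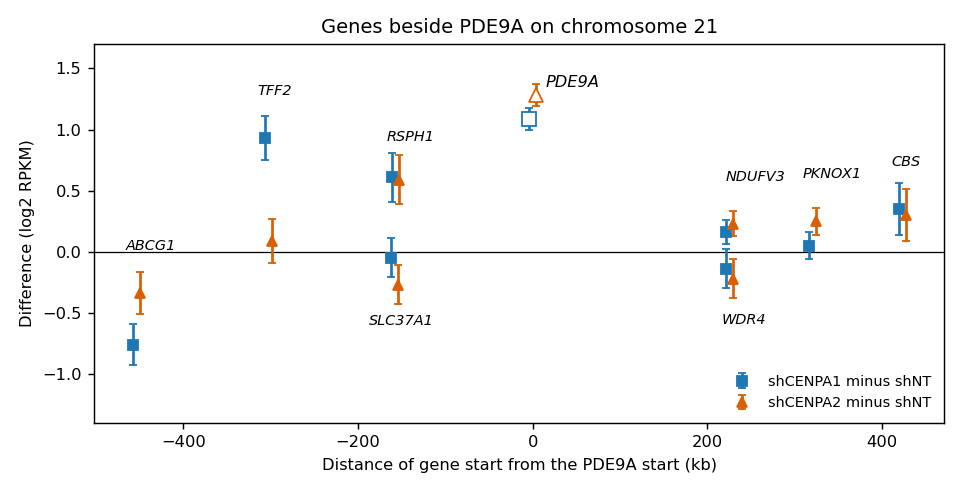
Difference from shNT in log2 RPKM (vertical axis, bars of 1 SE) against the distance of each gene start from the PDE9A start in kb, for shCENPA1 (squares) and shCENPA2 (triangles), with paired symbols set slightly apart and PDE9A as open symbols at 0. PDE9A lies at 1.09 and 1.28, and the 8 neighbours lie between -0.76 and 0.93.

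The genes whose course over the 6 libraries was nearest to that of PDE9A, by the root mean square of the differences between values centred on the shNT mean, were CAPN2 (0.035 log2 units), GPX3 (0.077), CYP1A1 (0.083), EGFL7 (0.107) and BRSK1 (0.112). CAPN2, a subunit of a calcium-dependent protease, was at 1.01 and 0.96 log2 RPKM in shNT, 2.03 and 2.11 with shCENPA1 and 2.27 and 2.28 with shCENPA2. Its level per length was below that of PDE9A in every library, and its differences from shNT were 1.09 and 1.29, beside 1.09 and 1.28 for PDE9A. None of the other members or PDE genes was among these 5.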

How the data were processed

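RNA-seq libraries of 22Rv1 cells were prepared by the study with a strand-specific mRNA kit. By its methods and the processing notes, the authors used Trim Galore for trimming, STAR for alignment to hg38 and HTSeq for counting reads; versions and the strand setting are not given in the sources used here. The authors deposited log2 RPKM per run, which include a small prior count, so differences of weakly expressed genes are drawn towards 0.

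From these values the 2 lanes of a library were averaged, since lanes differed far less than libraries (chi-square per gene of 1.24 to 1.31 against 26.5 to 80.1). The model in limma 3.58.1 (R 4.3.3) took 14624 genes, those with a mean of -3 or more (trend in the variance, 6 libraries in one fit, no covariate), with Benjamini-Hochberg adjustment over all of them. A gene passed at an adjusted p under 0.05, and "rose" and "fell" refer to such genes. Intervals are at 95% and unadjusted. Statements that the 4 knockdown libraries lay on one side of both shNT libraries describe the values. The share of all genes with this pattern was not counted. Whole reads were recovered for 14828 of 14828 genes (tolerance 1e-05 reads) and gave the depth and the voom fit. The fit and the recovery were tested on simulated data.

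The members and lists were chosen with earlier results of these data known. Named were all members and PDE genes, list genes that passed in the same direction with both shRNAs, and CENPA. Also named were the neighbours of PDE9A (all but WDR4 by name in the text) and the 5 genes most like it. Further list genes were chosen after their values were seen, as the text says. Positions are from GENCODE 44. The values of 1 further prostate marker gene are not reported here.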

Additional observations from a re-analysis of the deposited data

Results flagged for a closer look

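The 2 knockdown groups differed from each other for 208 of 14624 genes by limma's test of the difference between shCENPA2 and shCENPA1. CENPA was among them, with a log2 difference of -0.98 (adjusted p = 0.0209), a call that was lost without shCENPA1 library 1 (0.0908), shCENPA1 library 2 (0.212) or shCENPA2 library 2 (0.0571), with voom on the recovered reads (-0.95, adjusted p = 0.0981) and with 1 added to RPKM (-0.50, adjusted p = 0.0606). With 2 libraries per group, no test for a library that stands apart from the rest of its group was possible.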

How the results depend on the processing

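The difference of PDE9A from shNT was 1.00 to 1.17 with shCENPA1 and 1.20 to 1.33 with shCENPA2 over 19 other settings, with the lowest values after a trend in GC content and length was removed; GC content and length were matched for 88.1% of genes. The fall of CENPA held in all of them (-1.92 to -1.29 and -2.90 to -1.79), and no call changed sign, although some differences near 0 did (PDE4D with shCENPA1 from -0.05 to 0.19, PDE6D with shCENPA1 from -0.12 to 0.08). The number of genes that passed was 1044 with shCENPA1, 2712 with shCENPA2 and 208 between the shRNAs. It was 1613 with shCENPA1 and 455 between the shRNAs after the GC and length trend was removed, and 138 between the shRNAs without a trend in the variance; the cause was not tested. Leaving out 1 library gave 397 to 1403 genes with shCENPA1, 1360 to 2596 with shCENPA2 and 28 to 372 between the shRNAs, and where this left a group with 1 library, that library was assumed to vary like the other groups. With shCENPA1 the number was 538 without shNT library 1, 445 without shNT library 2, 607 without shCENPA1 library 1 and 397 without shCENPA1 library 2. With shCENPA2 it was 1436 without shNT library 1 and 1360 without shNT library 2. Library numbers did not pair the samples (correlations of deviations from -0.145 to -0.064). A block for the library number gave 868, 2375 and 160 genes, and a crossed pairing of shCENPA1 and shCENPA2 libraries, chosen after seeing the data, gave 757 between the shRNAs. Under the block PKIG and PRKAR1B with shCENPA1 (adjusted p = 0.0595 and 0.0649) and PDE5A, PDE11A and UNC119B with shCENPA2 (0.0525, 0.0607 and 0.0789) no longer passed. Depth limits genes such as PDE2A, PDE4C, PDE11A, PKIA, CNGA1, ABCC11 and KLK3, with 46 to 494 reads per library. Adding 1 to RPKM shrinks the log2 differences of such weakly expressed genes at any depth, so it does not measure read support. It brought ABCC11 to -0.39 and -0.48, where both calls held. With shCENPA2 it brought PKIA to -0.27 and CNGA1 to 0.31.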
